A study of Mus musculus with 8 samples.

Results

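Mitosis is run by a compact set of genes whose RNA is made late in the cell cycle, and 48 of these genes were followed here in mouse regulatory T cells (Tregs) that had been cultured with or without FcCD70. The 48 genes were taken by name from the deposited table of 19703 genes: the cyclins and the kinase that start mitosis, the kinases, checkpoint proteins and motors that build and test the spindle, the condensins that fold chromosomes, and the proteins that split the cell. All 48 had a row. All 48 also passed the filter used for testing, a mean of at least 10 normalized counts over the libraries, which 11083 genes of the table passed. The lowest member by mean was Ttk with 170.4 normalized counts, and no library held fewer than 59 reads for any member.

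The cells, titled WT (wild type) in every sample, were Tregs sorted from Foxp3-GFP reporter mice, in which cells that express Foxp3, the master transcription factor of Tregs, carry a green fluorescent protein. Every group was activated with beads that carry antibodies to CD3 and CD28, the T cell receptor signal and its co-signal, and was kept with the Th17-favouring cytokines IL6, IL23 and IL1B. RNA was taken on day 6. The untreated group received no FcCD70 and has 4 libraries, numbered 1 to 4. The FcCD70 group received FcCD70, which the labels do not describe further. CD70 is the ligand of the costimulatory receptor CD27 of T cells. The FcCD70 group has 4 labelled samples, of which those numbered 1 to 3 are used. The FcCD70 sample numbered 4 is not analysed here. The labels do not say whether samples came from separate mice or cultures, or what a shared number stands for. The spread behind every p-value is therefore that of the samples at hand and may be technical. The comparison of the groups asks what FcCD70 did to mitosis genes in Tregs under Th17 conditions. The groups follow the sample titles, since the treatment field contradicts the title in all 8 samples, and every direction below rests on the titles being right.

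A T cell that has been activated through its receptor divides several times, and each round of division needs a burst of mitotic RNA. Late in the cycle the kinase CDK1, switched on by cyclins A and B, drives entry into mitosis. Aurora and Polo-like kinases then organise the spindle, the checkpoint holds the cell until every chromosome is attached, and the anaphase-promoting complex with its activator CDC20 ends the wait by marking cyclin B and securin for destruction. Many of these genes are known to be kept silent in resting and G1 cells, and switched on in late cycle, through 2 short promoter elements: the CCAAT box, bound by the factor NF-Y, and the cell cycle genes homology region (CHR), bound by the DREAM and MuvB-FOXM1 complexes. RNA of a bulk sample is a sum over its cells, so fewer cells in division and less mitotic RNA per dividing cell cannot be told apart in these libraries.

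A larger share of the mitosis genes than of all genes had these 2 elements in the promoter, and for the CCAAT box other cell cycle genes came close to the same share. In windows from 250 bases before to 50 bases after the RefSeq start of transcription (GRCm38.p6), 41 of the 48 genes had an entry. The entries for Ccna2, Kif20a, Aurkb, Smc4, Incenp, Cdca2 and Tpx2 were missing. The CHR, searched as TTTGAA on both strands, stood in 30 of 41 (73.2%), against 20.2% of the 27025 genes of the promoter table and 13.8% of the tested genes that are no members. Other mitosis genes (76 with an entry) had it in 51.3% and DNA replication genes (40 with an entry) in 15%. The CCAAT box, searched as CCAAT on both strands, stood in 29 of 41 (70.7%), against 41.1% of all genes, 67.1% of the other mitosis genes and 62.5% of the DNA replication genes. Both were present in 25 of 41 (61%), against 8.97% of all genes, 39.5% of the other mitosis genes and 12.5% of the DNA replication genes, and neither in 7 of 41 (17.1%), against 47.7% of all genes. The E2F motif, searched as TTTCGCGC or TTTGGCGC on both strands, was found in 2 of 41 (4.88%), against 0.929% of all genes and 32.5% of the DNA replication genes. Matches that overlapped were each counted, and a match describes the letters of a window, not a bound site.

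The position of the elements differed as well. Of 42 CHR matches in the mitosis genes, 31 began within 40 bases of the start, a distance chosen after the positions were seen, and their median position was 7 bases before the start (-7). A CHR within 40 bases of the start was present in 27 of 41 mitosis genes (65.9%) and in 1307 of 27025 genes (4.84%). Of 70 CCAAT matches, 55 began between positions -200 and -20, with a median at -68.

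**Figure D1:**
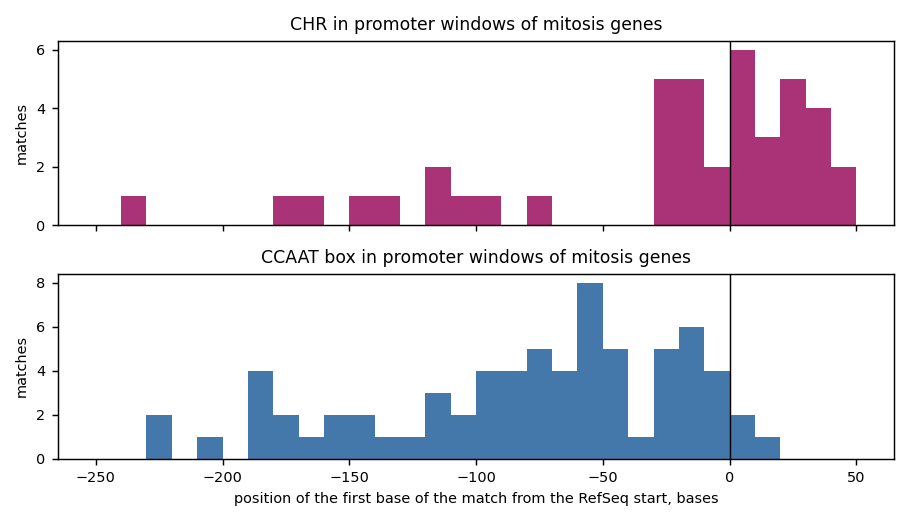
Number of CHR matches (top) and CCAAT box matches (bottom) per 10 bases, by the distance of the first base of the match from the RefSeq start, in the promoter windows of 41 mitosis genes. The CHR matches crowd around the start, with a median at -7, and the CCAAT matches lie mostly upstream of them, with a median at -68.

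The stretches below run 5′ to 3′ on the gene's own strand, from 100 bases before the start to at most 20 after it, with every CCAAT box (CCAAT or its reverse complement ATTGG) and every CHR (TTTGAA or TTCAAA) in capitals. The first 6 are shown because each holds a CCAAT box upstream of a CHR, the Mki67 stretch because its CHR lies far from the start, and the Birc5 stretch because it holds neither element.
Cdk1 promoter, chr10:69352909-69353012, minus strand: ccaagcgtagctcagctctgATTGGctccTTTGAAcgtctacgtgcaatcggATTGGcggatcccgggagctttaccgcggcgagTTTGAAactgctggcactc
Ccnb2 promoter, chr9:70421535-70421654, minus strand: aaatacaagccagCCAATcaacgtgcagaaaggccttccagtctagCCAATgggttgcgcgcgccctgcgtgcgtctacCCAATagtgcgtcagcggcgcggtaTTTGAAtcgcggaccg
Cdc20 promoter, chr4:118437324-118437443, minus strand: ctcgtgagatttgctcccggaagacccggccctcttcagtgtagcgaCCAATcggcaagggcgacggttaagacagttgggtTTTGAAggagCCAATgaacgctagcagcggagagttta
Cenpf promoter, chr1:189688067-189688186, minus strand: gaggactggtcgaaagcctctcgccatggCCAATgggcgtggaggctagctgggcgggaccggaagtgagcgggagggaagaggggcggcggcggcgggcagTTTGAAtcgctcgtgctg
Hmmr promoter, chr11:40733418-40733537, minus strand: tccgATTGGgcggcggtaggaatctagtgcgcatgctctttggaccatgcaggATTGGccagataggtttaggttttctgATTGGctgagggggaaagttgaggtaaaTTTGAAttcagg
Top2a promoter, chr11:99024170-99024289, minus strand: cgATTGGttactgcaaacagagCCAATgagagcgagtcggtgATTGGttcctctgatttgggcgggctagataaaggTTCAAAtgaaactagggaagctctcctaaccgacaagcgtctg
Mki67 promoter, chr7:135716360-135716479, minus strand: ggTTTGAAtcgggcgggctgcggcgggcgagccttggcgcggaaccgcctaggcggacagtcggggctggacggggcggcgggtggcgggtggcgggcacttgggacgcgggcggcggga
Birc5 promoter, chr11:117849137-117849256, plus strand: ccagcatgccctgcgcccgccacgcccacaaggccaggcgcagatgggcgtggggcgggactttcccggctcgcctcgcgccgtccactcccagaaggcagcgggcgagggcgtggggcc

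In the Cdk1 stretch each of 2 CCAAT boxes in reverse orientation precedes a CHR. Ccnb2, Hmmr and Top2a each carry 3 CCAAT boxes and 1 CHR within these 120 bases, and Cdc20 carries 2 boxes and 1 CHR. In Mki67 the nearest CHR begins at -98, and its 3 CCAAT boxes lie upstream of the stretch shown.

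Seen per length, most mitosis genes were expressed at moderate levels. Counts were divided by exon length, merged over all transcripts annotated in GENCODE M21, which can exceed the length of the RNA present. The members had a median of 117 normalized counts per kilobase, against 173 over the genes tested. Smc4, an ATPase core of both condensins, stood first with 4142 per kilobase. Top2a (510 per kilobase), the topoisomerase that untangles sister DNA, Pttg1 (463), the securin that guards separase, Mki67 (440), the protein coating mitotic chromosomes, and Ccnb2 (380), a B-type cyclin, followed. Anln, the actin-binding anillin of the cleavage furrow, was last with 25.9. In reads scaled to a common library total (RPM), Smc4 alone took 921 to 1356 in the 7 libraries, while the other 47 genes together took 2656, 2431, 1089 and 1409 RPM untreated and 1937, 1936 and 1103 with FcCD70. Apart from Smc4, then, the mitosis genes of the untreated libraries numbered 1 and 2 together held more of the reads than those of any other library.

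The libraries held 18159685 to 23527899 reads assigned to genes, and all 4 libraries numbered 1 or 2 held fewer reads than the 3 numbered 3 or 4. T cell and Treg markers were present in full (10 of 10 genes, summing to 5811 to 6137 RPM untreated and 5830.0 to 6158 with FcCD70). By gene the range differed: over the 7 libraries Foxp3 ran from 136 to 330 RPM, Cd3d from 646 to 1048 and Cd3e from 339 to 358. Of the B cell markers, the sum ran from 1630.3 to 1831 untreated and from 1623 to 1882 with FcCD70, nearly all of it Ighm. Of these 11 genes 5 were above 1 RPM: Ighm and, by mean, Ighd (23.4), Cd79b (7.96), Ebf1 (3.63) and Ms4a1 (1.18). The other means were lower, from 0.74 for Cd22 to 0.027 for Blk, with Pax5 at 0.105. Myeloid markers (11 of 14 with a row, S100a8 and S100a9 at 0) summed to 11.7 to 14.2 and 10.3 to 14.6. CD8 T cell and NK cell markers (6 genes, Ncr1 at 0) summed to 20.2 to 39.5 and 26.1 to 43.2, and red cell markers (3 of 6 with a row) to at most 0.085. The FcCD70 library numbered 2 had the lowest median correlation with the others over all genes (0.970, others up to 0.979).

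No mitosis gene passed the test between FcCD70 and untreated, and most of the fitted values lay below 0. Summed over all 48 genes, Smc4 included, the libraries held 3706, 3469, 2009.8 and 2368 RPM untreated and 3293, 3116 and 2059 with FcCD70. The sums of the groups overlapped, and with FcCD70 they were lower in pairs 1 and 2 and higher in pair 3. The log2 fold change, FcCD70 over untreated, was fitted with limma on log2(normalized count + 1) with the replicate number as a block, and it was below 0 for 38 of the 48 genes (79.2%), against 50.9% of all genes tested. Its median was -0.27, against -0.0035 over all genes, and its range ran from -0.66 for Anln to 0.42 for Pttg1. After Benjamini-Hochberg adjustment over all 11083 genes 0 members passed 0.05 (background 0% of genes, lowest adjusted p among the members 0.9998). At an unadjusted p under 0.05 limma counted 12 members, 11 of them lower (background 1.1%) and 1 of them, Pttg1, higher (background 0.596%). The values were lower with FcCD70 in all 3 same-numbered pairs for 19 members (background 9.61%), in 2 of 3 pairs for 21, in 1 for 7, and in 0 for Smc4. In no member did the groups separate: 0 of 48 had every FcCD70 library below every untreated one (background 1.18%). Without the replicate block 36 members were below 0, the median was -0.15, and 0 had an unadjusted p under 0.05 in limma. In fits without the block that also left out 1 library, the median turned to 0.05 without untreated library 1, to 0.01 without untreated library 2 and to 0.16 without FcCD70 library 3. With the block it was -0.14 without the pair numbered 1, -0.29 without pair 2 and -0.37 without pair 3.

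In the authors' deposited table, named as a paired DESeq2 analysis, 43 of the 48 members were below 0 with a median of -0.23 once its sign is turned to FcCD70 over untreated. That deposited table gives 0 members an adjusted p under 0.05 (background 0%), and 14 an unadjusted p under 0.05, all of them lower (background 0.991%). It rests on the same libraries and on data not analysed here, as its mean of 526 for Cdk1 against 550.3 over the 7 libraries shows. Its counts and those of the 7 libraries therefore come from different but overlapping samples, and neither is independent support for the other.

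**Figure D2:**
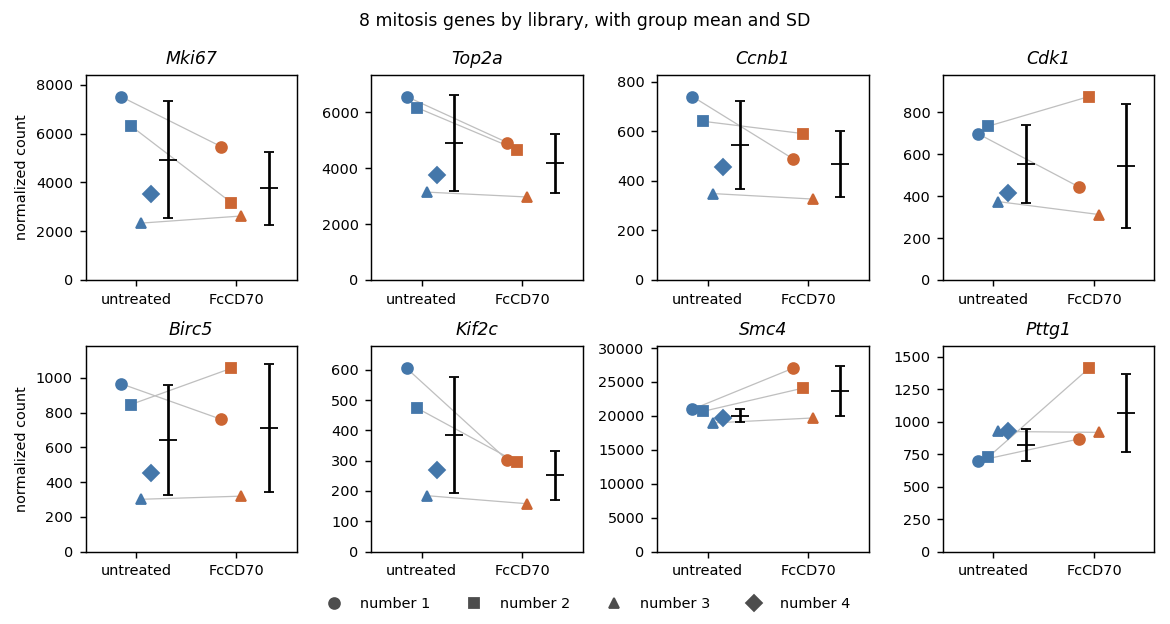
Normalized counts (vertical axes, from 0) of 8 mitosis genes in 4 untreated (blue) and 3 FcCD70 libraries (orange), with marker shapes for the replicate number, grey lines joining same-numbered libraries, and bars for the group mean and SD. The libraries numbered 1 and 2 of both groups stand above those numbered 3 and 4 for Top2a, Ccnb1, Cdk1, Birc5, Kif2c and Smc4. Smc4 is nearly flat across the untreated group, and Pttg1 runs the other way in that group.

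The cyclins and CDK1, which start mitosis, were all below 0 (4 of 4), and their median was -0.23 on the log2 scale. In this and the following paragraphs, values are normalized counts in the untreated libraries 1, 2, 3 and 4 and then the FcCD70 libraries 1, 2 and 3. Cdk1, the kinase of mitotic entry (GRCm38 chr10:69335146-69352938), had 698, 735, 374 and 413 untreated and 444, 876 and 312 with FcCD70. Its FcCD70 library numbered 2 was the highest of all 7, so the means of 555 ± 187 (SD, n = 4) and 544 ± 295 (SD, n = 3) were close, and its log2 fold change was -0.22 (95% interval -0.65 to 0.21). Ccnb1, cyclin B1, its main partner, had 741, 641, 349 and 454 untreated and 489, 591 and 326 with FcCD70. It was lower in all 3 pairs, with a log2 fold change of -0.27 (-0.65 to 0.10). Ccnb2, the other B-type cyclin, had 933, 737, 328 and 413 untreated and 538, 802 and 323 with FcCD70. As with Cdk1, pair 2 went up while pairs 1 and 3 went down. Ccna2, cyclin A2, which acts from S phase into early mitosis, had 1743, 1487, 587 and 784 untreated and 1276, 1413 and 531 with FcCD70. It was lower in every pair, by a fitted -0.22 (-0.53 to 0.09), while untreated library 1 held 2.97 times as much as untreated library 3.

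Among the mitotic kinases 3 of 4 were below 0, with a median of -0.19. Plk1, the Polo-like kinase of centrosomes and spindle poles, had 383, 357, 191 and 263 untreated and 219.6, 279 and 189.6 with FcCD70. All 3 FcCD70 libraries were below their partners, and the log2 fold change was -0.39 (-0.86 to 0.07). Aurka, the Aurora kinase of spindle poles, had 504, 319, 198 and 242 untreated and 327, 414 and 201 with FcCD70, and its fitted -0.07 (-0.56 to 0.41) joined a lower pair 1 to a higher pair 2. Melk, a kinase of dividing cells, had 472, 368, 135 and 176 untreated and 377, 471 and 165 with FcCD70. It was the kinase with a value above 0 (0.11, -0.35 to 0.56). Nek2, which separates centrosomes, had -0.30.

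The chromosomal passenger complex, Aurora B with its 3 partners, showed the smallest median among the role groups (-0.04, 2 of 4 below 0). Aurkb, its kinase, had 708, 692, 370.0 and 407 untreated and 549, 513 and 347 with FcCD70, lower in all 3 pairs (-0.30, -0.65 to 0.05). Birc5, survivin, which brings the complex to centromeres, had 967, 847, 301 and 450.0 untreated and 761, 1056 and 319 with FcCD70. Its means were 641 ± 317 (SD, n = 4) and 712 ± 371 (SD, n = 3), and its log2 fold change was 0.02 (-0.36 to 0.40). The interval of each of the 4 subunits included 0, so no direction of the complex can be read from the signs. In the authors' deposited table all 4 were below 0, with Birc5 at -0.0040 and Cdca8 at -0.010. Incenp, the scaffold, had 1536, 1409, 969 and 1116 untreated and 1218, 1252 and 1131 with FcCD70, a fitted -0.09, and Cdca8, borealin, had 0.02.

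Of the spindle checkpoint genes 3 of 4 were below 0 (median -0.27). Bub1b, the checkpoint protein BubR1 that holds CDC20 in check, had 988, 974, 435 and 567 untreated and 547, 665 and 421 with FcCD70. Its 3 FcCD70 values fell within the untreated range except for the lowest, and it was lower in all 3 pairs (log2 fold change -0.48, -0.88 to -0.09). Mad2l1, which with BubR1 forms the inhibitor of the anaphase-promoting complex, had 1016, 879, 644 and 725 untreated and 922, 1169 and 564 with FcCD70, a fitted 0.03 (-0.33 to 0.39). Both proteins work in the same inhibitor, and their RNAs had different values here, a difference that was not tested. Bub1, the kinase that docks checkpoint proteins, had -0.28 and was lower in all 3 pairs. Ttk, the kinase that starts checkpoint signalling, had pair differences from -1.59 in pair 1 to 0.86 in pair 3, the widest of the 48.

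Of the genes of anaphase promotion and sister chromatid separation 4 of 6 were below 0 (median -0.12). The highest of all 48 values, that of Pttg1, was in this group. Cdc20, the activator of the anaphase-promoting complex, had 618, 504, 205 and 279 untreated and 320.0, 467 and 239.9 with FcCD70, with a fitted -0.28 (-0.79 to 0.24). Pttg1, securin (chr11:43420250-43426251), had 699.9, 729, 925 and 932 untreated and 868, 1413 and 919 with FcCD70. Its means were 822 ± 124 (SD, n = 4) and 1067 ± 301 (SD, n = 3), the log2 fold change was 0.42 (SE 0.18), and the unadjusted limma p was 0.0485 (adjusted p 0.9998). Pair 2 differed by 0.95, pair 1 by 0.31 and pair 3 by -0.01, so the FcCD70 library numbered 2 carried most of it. Espl1, separase, the protease that securin inhibits, went the other way with -0.56 (-1.09 to -0.03). Its pair differences were -1.03, -0.72 and 0.07. Espl1 has 8749 bases of exon and Pttg1 2000, and pair 2 differed with gene length, as given below. The contrast with Pttg1 was not tested. Cdca3, a trigger of mitotic entry, had 585, 631, 291 and 369 untreated and 539, 812 and 274 with FcCD70, a fitted 0.05. Ube2c, the ubiquitin-conjugating enzyme of the complex, had -0.16, and Cdca5, sororin, which protects cohesion, had -0.08.

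At centromeres and kinetochores 4 of 6 genes were below 0 (median -0.25). Cenpe, a kinetochore motor that brings chromosomes to the spindle equator, had 1526, 1319, 357 and 565 untreated and 919, 735 and 429 with FcCD70. Its untreated values spread 4.27 times between libraries 1 and 3, and the fitted -0.44 ran from -0.91 to 0.04. Cenpf, a large kinetochore protein, had -0.47 (-0.81 to -0.13) and was lower in all 3 pairs. Cenpa, the histone variant that marks centromeres, had 2234, 1874, 1379 and 1596 untreated and 1893, 2068 and 1565 with FcCD70, a fitted 0.03 (-0.27 to 0.33). Of the microtubule-binding Ndc80 complex, Nuf2 had -0.36, Ndc80 -0.14 and Spc25 0.04.

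The kinesin motors were the role group with the lowest median, -0.44, and all 6 were below 0. At an unadjusted p under 0.05 limma counted 4 of the 6 (Kif2c, Kif20a, Kif4 and Kif15), all lower (background 1.1%), and the same 4 were lower in all 3 pairs (background 9.61%). Kif2c, MCAK, which takes microtubule ends apart to correct wrong attachments (chr4:117159639-117182639), had 605, 474, 185 and 271 untreated and 302, 294 and 158 with FcCD70. Its means were 384 ± 191 (SD, n = 4) and 252 ± 81.2 (SD, n = 3), and its log2 fold change was -0.64 (SE 0.20, -1.09 to -0.19). Kif20a, which carries passenger proteins to the midzone, had 1056, 1028, 359 and 505 untreated and 789, 562 and 325 with FcCD70 (-0.48, -0.87 to -0.09). Kif11, the motor Eg5 that pushes spindle poles apart, had 1545, 1511, 516 and 769 untreated and 1254, 1114 and 665 with FcCD70. It was the kinesin nearest to 0 (-0.12), with pair 3 going up. Kif23, a midzone motor, had -0.36, Kif15 -0.40 and Kif4 -0.48.

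The 3 spindle assembly factors were all below 0 (median -0.37). Hmmr, which anchors spindle poles, had -0.53 (-0.90 to -0.17) and was lower in all 3 pairs. Tpx2, the activator of Aurora A, had 1223, 1257, 418 and 657 untreated and 779.9, 795 and 481 with FcCD70 (-0.37, -0.79 to 0.06). Nusap1, a microtubule bundler, had 1336, 1405, 466 and 673 untreated and 918, 1179 and 452 with FcCD70, lower in all 3 pairs (-0.28, -0.61 to 0.05). Untreated library 1 held 2.87 times the Nusap1 of untreated library 3, a wider step than any between same-numbered libraries.

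In the group of condensin and chromosome structure genes 5 of 7 were below 0 (median -0.20). Mki67, the Ki-67 antigen (chr7:135689784-135716361), had 7522, 6321, 2328 and 3534 untreated and 5463, 3165 and 2621 with FcCD70. Its means were 4926 ± 2407 (SD, n = 4) and 3749.9 ± 1509 (SD, n = 3), and its log2 fold change was -0.43 (-0.87 to 0.01), lower in pairs 1 and 2 and higher in pair 3. Top2a (chr11:98992943-99024189) had 6572, 6178, 3145 and 3744 untreated and 4923, 4660.4 and 2970.1 with FcCD70. It was lower in all 3 pairs, with the narrowest interval of the 48 that excluded 0 (-0.30, -0.59 to -0.01). Cdca2, Repo-Man, which brings a phosphatase to chromosomes at mitotic exit (chr14:67676331-67715841), had 445, 487, 252 and 292 untreated and 271, 272 and 191 with FcCD70. Its log2 fold change was -0.65 (SE 0.18, -1.06 to -0.24), with pair differences of -0.71, -0.84 and -0.40. Smc4 (chr3:69004738-69034623) had 20977, 20648, 18956 and 19638 untreated and 27026, 24099 and 19697 with FcCD70. It was higher in all 3 pairs, by a fitted 0.21 (-0.12 to 0.55), while its partner Smc2 had -0.20. The non-core condensin subunits Ncapg and Ncaph had -0.18 and 0.01.

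Cytokinesis genes were below 0 in 4 of 4 members (median -0.33). Anln (chr9:22332012-22389188) had 320.2, 399, 157 and 232 untreated and 129, 237 and 166 with FcCD70. Its log2 fold change of -0.66 (SE 0.26, -1.25 to -0.07) was the lowest of all 48 and came from pairs 1 (-1.30) and 2 (-0.75), with pair 3 at 0.08. Prc1, which bundles midzone microtubules, had 1053, 1002, 586 and 704 untreated and 839, 756 and 579 with FcCD70, lower in all 3 pairs (-0.25, -0.58 to 0.08). Racgap1, the centralspindlin partner of Kif23, had 1337, 1337, 763 and 839.9 untreated and 1099.9, 1119.9 and 756 with FcCD70, also lower in all 3 (-0.18, -0.48 to 0.12). Ect2, the exchange factor that turns on RhoA at the furrow, had -0.41 (-0.87 to 0.05).

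The size of the difference changed from pair to pair. In pair 1 the median over the 48 members was -0.47, with 45 below 0. In pair 2 it was -0.22, with 33 below 0, and in pair 3 it was -0.01, with 28 below 0. Over all genes the medians of the pairs lay within 0.01 of 0. Most members were thus lower in pairs 1 and 2, and in pair 3 the untreated and FcCD70 libraries were nearly level, both at the low end of the 7.

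**Figure D3:**
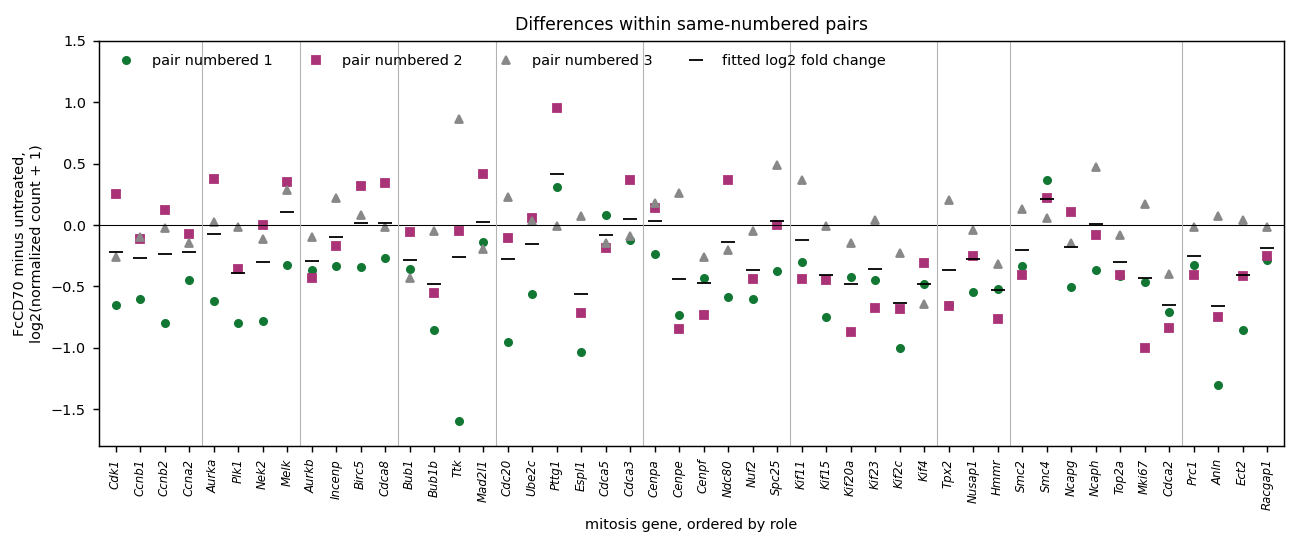
Difference of log2(normalized count + 1), FcCD70 minus untreated, in each same-numbered pair (markers) and the fitted log2 fold change (black dashes) for the 48 mitosis genes, in role order with vertical lines between roles. Pair 1 lies below 0 in 45 genes, pair 2 in 33 and pair 3 in 28.

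Pair 2 differed with gene length. Its differences in the 48 members ran down with the log2 of exon length (Pearson r = -0.49, Spearman rho = -0.47, across genes, which are not independent replicates), and over 11076 genes r was -0.36. In pairs 1 and 3 the values over the members were -0.12 and -0.08, and over all genes 0.087 and 0.086. In pair 2 the 24 members shorter than the median length of 4926.5 bases had a median difference of -0.08 and the 24 longer ones -0.41. The short ribosomal protein genes (22 tested) stood 0.69 higher in the FcCD70 library of pair 2 and 0.28 lower (-0.28) in that of pair 1. After removal of the trend on length, the medians of the members in pairs 1, 2 and 3 were -0.49, -0.15 and -0.03. The part of length in the differences of single genes was not tested.

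**Figure D4:**
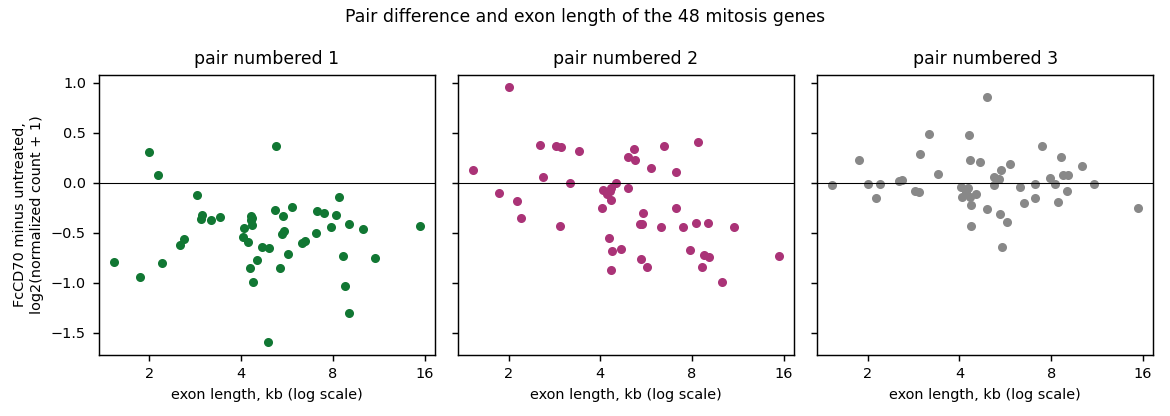
Pair difference (vertical axis, FcCD70 minus untreated, log2(normalized count + 1)) against exon length in kilobases (horizontal axis, log scale) for the 48 mitosis genes, 1 panel per same-numbered pair. In pair 2 short genes lie near or above 0 and long genes below it (r = -0.49), and in pairs 1 and 3 there is little slope (r = -0.12 and -0.08).

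By replicate number the libraries separated in most mitosis genes. In 40 of the 48 members all 4 libraries numbered 1 or 2, whatever their treatment, were above all 3 libraries numbered 3 or 4 (background 11.1% of genes), and 0 members showed the reverse. From untreated library 3 to untreated library 1 the members differed by a median of 2.69 times, from 0.756 for Pttg1 to 6.36 for Ttk, and 36 members (75%) differed at least 2-fold, against 4.91% of all genes. Between FcCD70 libraries 1 and 3 the median was 1.66 times. Neither the split of numbers 1 and 2 from 3 and 4 nor the choice of untreated libraries 1 and 3 was in the plan. Untreated libraries 1 and 3 were the highest and lowest of the 7 in the mean standardized profile of the members (1.09 and -1.13). Part of the excess over the background therefore comes from that choice. The median centred level of the members over the 7 libraries, in log2 units, was 0.68, 0.52, -0.66 and -0.26 untreated and 0.14, 0.25 and -0.64 with FcCD70.

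In limma's F test of the replicate number, 5 members passed an adjusted p of 0.05 (background 0.135%, 15 genes in all): Ccna2 (adjusted p 0.0411), Bub1 (0.0411), Cenpf (0.0458), Nusap1 (0.0468) and Birc5 (0.0494). At an unadjusted p under 0.05 limma counted 42 members (background 8.02%). DESeq2 on the recovered reads called 32 members at an adjusted p under 0.05 (background 2.14%), and edgeR called 0 (background 0%). At an unadjusted p under 0.05 edgeR, like limma, counted 42 (background 7.71%). Without the libraries numbered 2, limma called 45 members (background 16.3%). It called 18 without those numbered 1 (background 0.713%) and 1 without those numbered 3 (background 0.352%), with 1 residual degree of freedom in each of these 3 fits. The libraries numbered 1 and 2 also had fewer assigned reads than those numbered 3 and 4. In the untreated group they had lower ribosomal protein RNA (median centred log2 of -0.27 and -0.35, against 0.29 and 0.36 in numbers 3 and 4). With FcCD70 these values were -0.56, 0.34 and 0.19 in numbers 1, 2 and 3, so only number 1 was low there. Whether these numbers stand for animals, days or batches is not in the labels, and the part of depth was not tested.

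**Figure D5:**
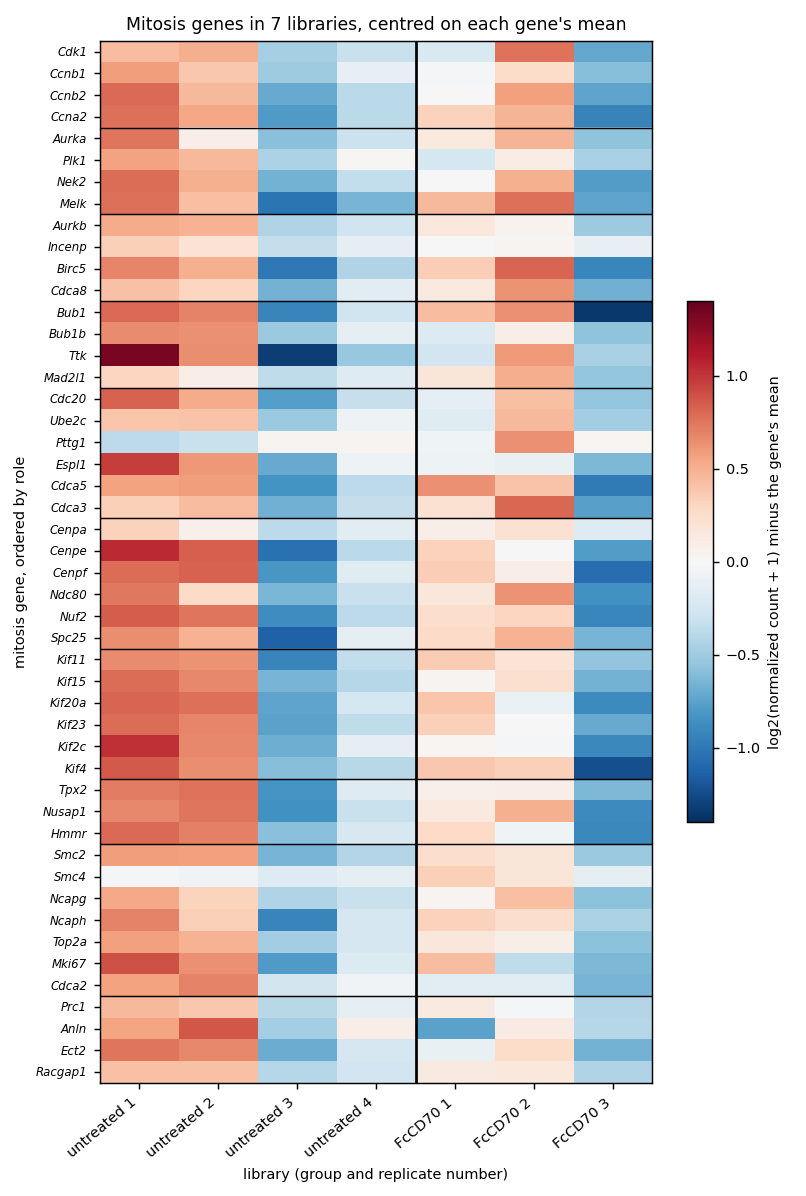
Log2(normalized count + 1) minus the gene's mean over the 7 libraries (colour) for the 48 mitosis genes in role order (rows) and the libraries by group and number (columns). Untreated libraries 1 and 2 are red and untreated 3 and FcCD70 3 blue in nearly all rows, while Smc4 is pale throughout and Pttg1 departs from the rest.

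The members moved together across the libraries. Each gene's profile over the 7 libraries was correlated with the mean standardized profile of the other 47, and the median r was 0.955, with 40 members above 0.9. The highest was Nuf2 (0.995), and the exceptions below 0.5 were Smc4 (0.45) and Pttg1 (-0.26). Between pairs of members (1128 pairs) the median r was 0.90, against -0.002 between pairs of all genes. These values are descriptions, since all share the same 7 libraries and their numbers.

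Outside the 48, 207 of 11035 tested genes (1.88%) had a profile with r above 0.9 to that of the members. Among the 10 with the highest r and a mean of at least 50 were Tcf19 (0.997), Mcm6 (0.995), C330027C09Rik (0.992), Mcm5 (0.990), Ccnf (0.989), Gtse1 (0.988), Mcm3 (0.986), Lig1 (0.985) and Cep55 (0.985). Mcm3, Mcm5 and Mcm6 belong to the replicative helicase, Lig1 joins replicated DNA, Ccnf is cyclin F, Gtse1 a microtubule-associated protein and Cep55 an abscission factor. Of the 50 most alike under the same minimum, 15 stood in a list of other mitosis genes and 13 in a list of DNA replication genes. These lists held 89 and 47 of the 11035 tested genes. The remaining 22 stood in neither list.

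In other cell cycle lists the medians between FcCD70 and untreated lay nearer to 0, a difference between lists that was not tested. Among 89 tested genes of other mitotic factors, 72 were below 0 (50.9% of all genes) with a median of -0.16. In all 3 pairs 20 were lower (background 9.61%). Limma's unadjusted p was under 0.05 for 9, all lower (background 1.1%). The 2 with the smallest p were Parpbp, which holds back recombination (220 ± 113 (SD, n = 4) and 149 ± 64.9 (SD, n = 3) normalized counts, log2 fold change -0.71), and Troap, a spindle protein (111 ± 49.6 and 53.0 ± 8.57, -1.03). Among 47 DNA replication genes 36 were below 0, with a median of -0.07, and 7 were lower in all 3 pairs (background 9.61%). Rrm2 (-0.38) and the chromatin assembly factor Chaf1a (-0.35) had the smallest p there. Among 19 tested G1 genes 11 were below 0, with a median of -0.02, Cdk6 (-0.43) and Ccnd2 (-0.20) having the smallest p. After adjustment 0 genes of these 3 lists passed limma's 0.05. By replicate number, limma's unadjusted F test was under 0.05 for 49 of 89 other mitosis genes, 23 of 47 replication genes and 3 of 19 G1 genes (background 8.02%). In pair 1 the medians of these lists were -0.30, -0.26 and -0.09, in pair 2 they were -0.22, -0.01 and 0.05, and in pair 3 they were 0.00, 0.03 and -0.04.

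Some counts carry a limit from the annotation. In GENCODE M21 11 members share exon bases with a gene on the opposite strand: Ccna2, Plk1, Nek2, Cdca8, Cdc20, Ube2c, Kif20a, Kif4, Nusap1, Ncapg and Prc1. Top2a shares exon bases with a gene on its own strand. Which strand setting the counting used is not given in the sources used here. Reads of these overlaps may be shared between the genes.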

How the data were processed

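Libraries were stranded TruSeq mRNA libraries, per the labels' protocols. Per the submitters' processing notes, which give neither roles nor order, the tools were HTSeq, TopHat2, DESeq2 and SAMtools, on GRCm38.p4. The deposited table gives, per gene, a signal per library, which is the read count divided by 1 size factor. It also gives the authors' log2 fold change and, from a DESeq2 analysis per the file headers, which the deposited table's name calls paired, the authors' Wald score per gene with p-values. In every library column 100% of values were whole reads (within 0.01), and these recovered reads entered the edgeR (4.0.16) and DESeq2 (1.42.0) alternatives. The authors' fold changes compare untreated with FcCD70, and their sign was turned.

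Genes were tested with limma (3.58.1, trend, R 4.3.3) on log2(value + 1), for a mean of at least 10, with the replicate number as a block and Benjamini-Hochberg adjustment, a scale that understates the change of low genes. The plan allowed for raw counts, but the values were normalized. The untreated library numbered 4 has no partner, so fold changes rest on 3 pairs (2 residual degrees of freedom). Limma also draws each gene's variance partly from the other genes, so its p-values and intervals rest on more than these 2 degrees of freedom. Deviations of same-numbered libraries correlated at 0.30, 0.01 and 0.43 over all genes for numbers 1, 2 and 3. The libraries numbered 1 and 3 thus deviated partly together, and those numbered 2 hardly did. The block was kept because the authors' table is named as paired.

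The members and gene lists were chosen with earlier results of these data known. Library by library values were given for the 2 highest members of each role, 8 preset genes and the 3 lowest and 3 highest fold changes, and Hmmr, Cenpf and other genes with a fold change alone were named after their values were seen. Other genes named are the 2 with the smallest p of each list and the 10 most alike in profile (mean of at least 50), of which 1 is not reported here. The tests were tried on simulated data. Depth was 18159685 to 23527899 reads per library. Alternatives were tool, scaling, pseudocount, filter, block and left-out libraries.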

Additional observations from a re-analysis of the deposited data

How the results depend on the processing

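No mitosis gene passed an adjusted p of 0.05 between FcCD70 and untreated in the main analysis or in any of the 20 alternatives, each run over all 48. The limma count over all genes was 0 (188 at an unadjusted p under 0.05), edgeR called 0 (168 unadjusted) and DESeq2 1 (141 unadjusted). With libraries left out it ran from 0 to 20, with 19 without replicate 2, 6 without replicate 3 and 20 without FcCD70 replicate 2, an alternative chosen after seeing the data, as was the removal of the length trend. Over the fits with libraries left out, the number of members below 0 ran from 13 to 46 and their median from -0.37 to 0.16. The median turned above 0 in 3 fits without the replicate block: 0.05 without untreated replicate 1 (19 below 0), 0.01 without untreated replicate 2 (22 below 0) and 0.16 without FcCD70 replicate 3 (13 below 0). The cause was not tested.

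The replicate number as a block changed no call between the groups: with and without it 0 genes passed. Aurka and Cdca5 turned to 0.023 and 0.033 without the replicate block. Ncaph turned to -0.011 with edgeR, -0.0032 with DESeq2 and -0.00080 with TMM scaling. The number effect depended on the tool. Over all genes and over members it gave 15 and 5 calls in limma, 0 and 0 in edgeR, 237 and 32 in DESeq2, 2 and 0 with TMM scaling, and 0 and 0 with no filter (members at an unadjusted p under 0.05: 42, 42, 42, 42 and 33). A pseudocount of 0.5 left 3 members, and removal of the length trend gave 145 genes and 22 members. With libraries left out it gave 39 to 1827 genes and 1 to 45 members. The likeness of the members to one another was run in 2 alternatives. Its median r was 0.955 in the main analysis, 0.976 without FcCD70 replicate 2 and 0.952 without replicate 1.

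Across the fits with libraries left out 14 members kept 1 sign, 12 of them below 0 (Plk1, Bub1b, Espl1, Kif20a, Kif2c, Tpx2, Hmmr, Mki67, Cdca2, Prc1, Anln and Ect2) and Pttg1 and Smc4 above it. The share of all genes that kept 1 sign is not given here, so 14 cannot be called many or few. Among the 12 the value nearest to 0 ran from -0.39 for Cdca2 to -0.028 for Prc1 and -0.0012 for Kif20a. The other 34 changed sign in at least 1 fit, with these ranges of log2 fold change: Cdk1 -0.51 to 0.23, Ccnb1 -0.40 to 0.037, Ccnb2 -0.41 to 0.25, Ccna2 -0.36 to 0.36, Aurka -0.30 to 0.31, Nek2 -0.45 to 0.18, Melk -0.024 to 0.73, Aurkb -0.40 to 0.026, Incenp -0.25 to 0.060, Birc5 -0.23 to 0.63, Cdca8 -0.24 to 0.41, Bub1 -0.53 to 0.47, Ttk -0.82 to 0.41, Mad2l1 -0.17 to 0.37, Cdc20 -0.53 to 0.10, Ube2c -0.38 to 0.093, Cdca5 -0.28 to 0.54, Cdca3 -0.22 to 0.57, Cenpa -0.048 to 0.19, Cenpe -0.79 to 0.041, Cenpf -0.69 to 0.064, Ndc80 -0.39 to 0.38, Nuf2 -0.53 to 0.19, Spc25 -0.30 to 0.41, Kif11 -0.37 to 0.27, Kif15 -0.60 to 0.032, Kif23 -0.56 to 0.081, Kif4 -0.58 to 0.23, Nusap1 -0.45 to 0.25, Smc2 -0.37 to 0.18, Ncapg -0.33 to 0.20, Ncaph -0.23 to 0.32, Top2a -0.41 to 0.035, Racgap1 -0.27 to 0.10. With 3 pairs the 95% interval of the fold change included 0 in 36 of the 48 members. These intervals use limma's variances, which draw partly on other genes.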
